A study of Homo sapiens with 4 samples.

Results

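The genes described here are the core of the YAP and TAZ arm of the Hippo pathway: the coactivators YAP1 and WWTR1 (the gene of TAZ), the DNA-binding partners TEAD1, TEAD2, TEAD3 and TEAD4, the kinases LATS1 and LATS2, and the TEAD cofactors VGLL3 and VGLL4. They were found by matching the gene symbol of each row of the raw count table, which gave 1 row for each of the 10 genes among 63241 in all. Their transcripts were compared between 2 libraries of FT190 cells that expressed an shRNA against SMARCA4, an ATPase subunit of SWI/SNF chromatin remodelling complexes, and 2 libraries of FT190 cells with the control vector, labelled PLKO. The labels name 1 hairpin (SMARCA4_sh1), so no second hairpin stands beside it. All 4 libraries are labelled as wild type in genotype and as ovarian epithelial, and FT190 is an immortalised human cell line derived from fallopian tube secretory cells. The labels do not state that replicates came from different cultures: every p-value below reflects variation among these 4 libraries, and that variation may be technical only.

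In the Hippo pathway the kinases STK3 and STK4 (MST2 and MST1), with the scaffold SAV1, activate LATS1 and LATS2, which work with MOB1 proteins. LATS kinases phosphorylate YAP and TAZ, which then stay in the cytoplasm or are degraded. When they are not phosphorylated, YAP and TAZ enter the nucleus and bind TEAD proteins, which carry them to DNA, because neither coactivator binds DNA itself. VGLL proteins bind TEADs as well, and VGLL4 competes with YAP there. SWI/SNF complexes that hold ARID1A are known to bind YAP and TAZ and to limit their association with TEADs. Much of this control acts on protein phosphorylation and location, which transcript counts do not measure.

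The libraries held 28536665 and 27137414 counts in shSMARCA4 cells, and 33641343 and 32618516 counts in control cells. SMARCA4 had 33.998 and 36.3 CPM (counts per 1000000 counts of the scaled library) in shSMARCA4 cells, against 171 and 162 CPM in controls, a log2 fold change of -2.24 (SE 0.0524). FT190 cells of both groups expressed PAX8, a transcription factor of tubal secretory cells, at 63.2 and 63.5 CPM in shSMARCA4 cells and 57.4 and 59.8 CPM in controls. Of 8 epithelial markers, the keratins KRT7, KRT8 and KRT18 lay above 300 CPM in every library. The others were low: CDH1 at 3.41 to 4.70 CPM, CLDN4 at 0.38 to 1.13 CPM, and EPCAM, KRT19 and CLDN7 below 0.6 CPM in every library. The summed epithelial markers, nearly all of it keratins, came to 1180 CPM in each shSMARCA4 library and to 1670 to 1780 CPM in the controls. Of the 6 tested, 4 were called lower. The summed fibroblast and smooth muscle markers came to 1790 to 1930 CPM in shSMARCA4 cells and 2610 to 2620 CPM in controls. Of the 8 tested, 7 were called lower, against 15.8% of all genes tested. That list was led by COL1A1, while COL1A2 and DCN lay below 0.4 CPM in every library. Ciliated cell markers summed to 312 to 313 CPM in shSMARCA4 cells and 392 to 429 CPM in controls, nearly all of it TUBB4B, while FOXJ1, the defining factor of ciliated cells, had 1 count in all. Tubal secretory markers summed to 82.8 to 83.5 CPM in shSMARCA4 cells and 74.0 to 75.1 CPM in controls, most of it PAX8. WT1 had 18.4 and 18.0 CPM in shSMARCA4 cells and 14.8 and 13.8 CPM in controls. Of the 3 tested, WT1 alone was called (0.35, SE 0.0782, higher). The other markers of that list were low in every library: SOX17 at 1.12 to 1.69 CPM, OVGP1 at 0.183 to 0.254 CPM and CRISP3 at 0. The 6 endothelial markers (sums of 0.967 to 1.23 CPM in shSMARCA4 cells and 1.07 to 1.15 CPM in controls) and 6 of 8 immune markers each lay below 1 CPM in every library, with EMCN, NKG7 and CD79A at 0. The immune sums, 23.5 to 25.2 CPM in shSMARCA4 cells and 23.2 to 25.6 CPM in controls, were almost all CD68. In bulk RNA, fewer cells of a type and less RNA per cell cannot be told apart, and the part of these marker differences in the results below was not tested.

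All 10 genes passed the filter on low counts. With SMARCA4 shRNA, 2 of them rose (WWTR1 and TEAD4), 5 fell (YAP1, TEAD1, TEAD2, TEAD3 and VGLL3), and LATS1, LATS2 and VGLL4 did not pass the test. A gene is said to have risen or fallen where its adjusted p was under 0.05 in the quasi-likelihood test of edgeR, adjusted by Benjamini-Hochberg over all 18781 genes tested. Of all genes tested, 29.7% passed, 13.8% higher and 15.8% lower. The same test called 42.5% of protein-coding genes with a mean of 15 CPM or more, a level that each of the 10 genes reached. Scaling moved the split of all calls, from TMM factors with 2596 higher and 2976 lower to library totals with 3621 higher and 2468 lower. The shSMARCA4 and control libraries did not overlap for 9 of the 10 genes, which was so for 65.9% of all genes. The median log2 fold change of the 10 was -0.12, and that of all genes tested was 0.00. The changes lay between -0.53 and 0.44 on the log2 scale.

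**Figure D1:**
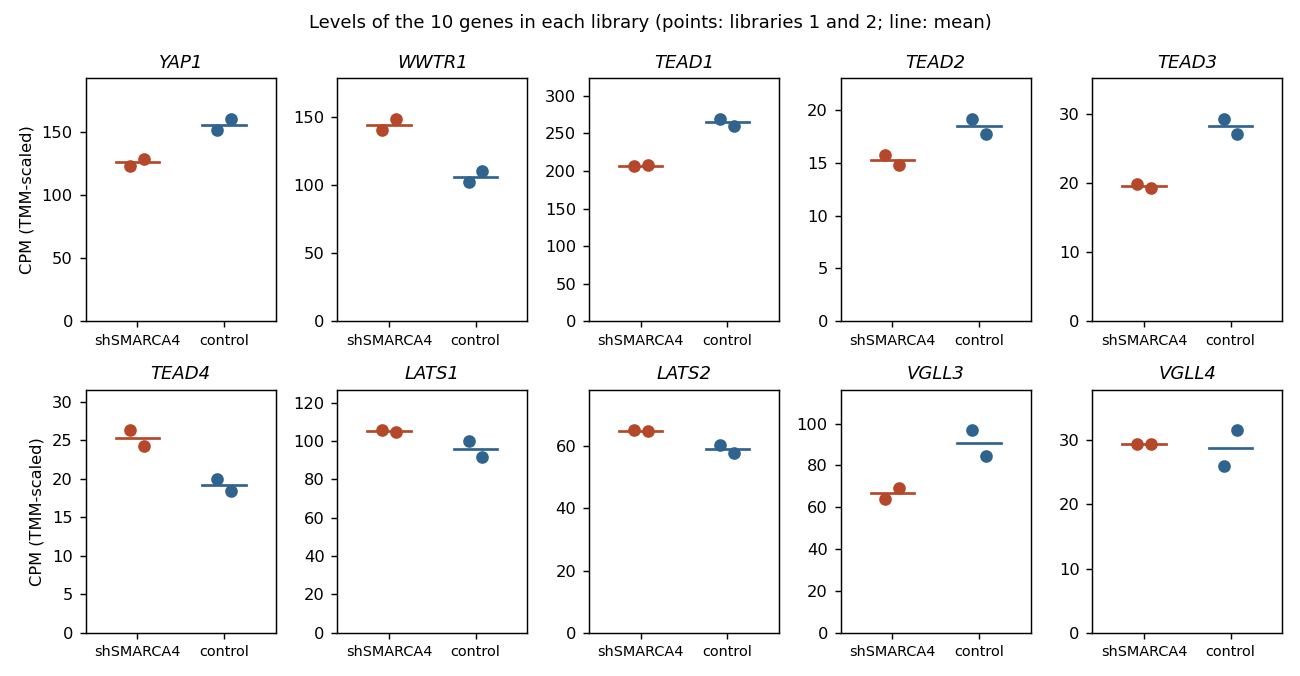
Level of each gene in CPM (y axis, from 0, with its own scale per panel) in the 2 shSMARCA4 and the 2 control libraries (x axis); points are libraries and lines are group means. WWTR1 and TEAD4 were higher in both shSMARCA4 libraries, YAP1, TEAD1, TEAD2, TEAD3 and VGLL3 were lower, and the VGLL4 groups overlapped.

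The 2 coactivators moved in opposite directions. WWTR1 (ENSG00000018408.15, chr3:149517235-149658025, minus strand, hg38) had 141 and 149 CPM in shSMARCA4 cells, against 102 and 111 CPM in controls. Both shSMARCA4 libraries lay above both controls, and the gene rose 1.36-fold, a log2 fold change of 0.44 (SE 0.0519, adjusted p = 3.48e-04). YAP1 (ENSG00000137693.14, chr11:102110447-102233424, plus strand) had 123 and 129 CPM in shSMARCA4 cells, against 151 and 160 CPM in controls. Here both shSMARCA4 libraries lay below both controls, with a log2 fold change of -0.31 (SE 0.0471, adjusted p = 0.00140), a level 1.24-fold lower. Divided by the length of the counted exons, WWTR1 stood at 1.23 and 1.24 times the level of YAP1 in the shSMARCA4 libraries and at 0.726 and 0.741 times in the controls, so that the order of the pair was reversed. The sum of both genes was 50.8 and 53.5 CPM per kilobase in shSMARCA4 cells, and 48.4 and 51.7 in controls, and these ranges overlapped. Reads were counted without regard to strand: the long non-coding RNA ENSG00000254422 lies within the span of YAP1 on the other strand and held 2670 counts over the 4 libraries, against 17217 for YAP1. WWTR1-AS1, which spans the start of WWTR1 on the other strand, held 754 counts against 15105 for WWTR1. Only spans were compared, not exons, so how many reads either pair shares is not known.

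The promoters of this pair are shown because the genes moved apart, and that of LATS2 because it holds the same motif as that of YAP1. RefSeq windows (GRCh38.p14, 250 bases before to 50 after the start) were found for 8 of the 10 genes, not for TEAD1 and TEAD4. The window nearest to the counted transcript was used. Capitals mark GGAATG, the core of the sequence that TEAD proteins bind, searched on both strands.
YAP1 (chr11:102110197-102110496, plus strand): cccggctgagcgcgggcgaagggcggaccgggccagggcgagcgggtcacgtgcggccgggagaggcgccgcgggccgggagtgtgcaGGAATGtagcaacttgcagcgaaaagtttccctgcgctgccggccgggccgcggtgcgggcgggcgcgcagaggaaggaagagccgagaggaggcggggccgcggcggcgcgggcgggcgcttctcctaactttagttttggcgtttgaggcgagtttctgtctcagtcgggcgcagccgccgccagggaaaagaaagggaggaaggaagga
WWTR1 (chr3:149657976-149658275, minus strand): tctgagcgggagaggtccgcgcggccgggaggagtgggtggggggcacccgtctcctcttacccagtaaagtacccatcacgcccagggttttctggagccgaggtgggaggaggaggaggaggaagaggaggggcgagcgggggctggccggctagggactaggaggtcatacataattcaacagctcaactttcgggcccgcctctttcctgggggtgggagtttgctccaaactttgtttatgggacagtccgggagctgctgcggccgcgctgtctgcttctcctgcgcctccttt
LATS2 (chr13:21061537-21061836, minus strand): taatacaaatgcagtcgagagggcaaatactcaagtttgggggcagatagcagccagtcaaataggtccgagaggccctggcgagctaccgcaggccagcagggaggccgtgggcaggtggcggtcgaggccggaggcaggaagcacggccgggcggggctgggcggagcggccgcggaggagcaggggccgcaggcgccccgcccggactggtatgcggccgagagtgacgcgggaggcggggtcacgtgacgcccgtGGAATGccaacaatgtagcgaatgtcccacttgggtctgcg

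GGAATG stood in the windows of YAP1 and LATS2, 2 of 8, and in 10.8% of the 11892 promoters of tested genes. Counting the start as 0, it lay at -162 to -157 in YAP1 and at 9 to 14 in LATS2. The pattern TGANTCA, a loose form of the AP-1 motif with any middle base, was also searched on both strands. It was found for LATS1 alone, as TGAATCA, against 4.78% of all promoters. The CArG box bound by SRF was found for none of the 8, against 0.959%. YAP1, which fell, and LATS2, which did not pass the test, thus share a motif that the WWTR1 window does not hold. Such matches describe these windows and say nothing of binding.

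**Figure D2:**
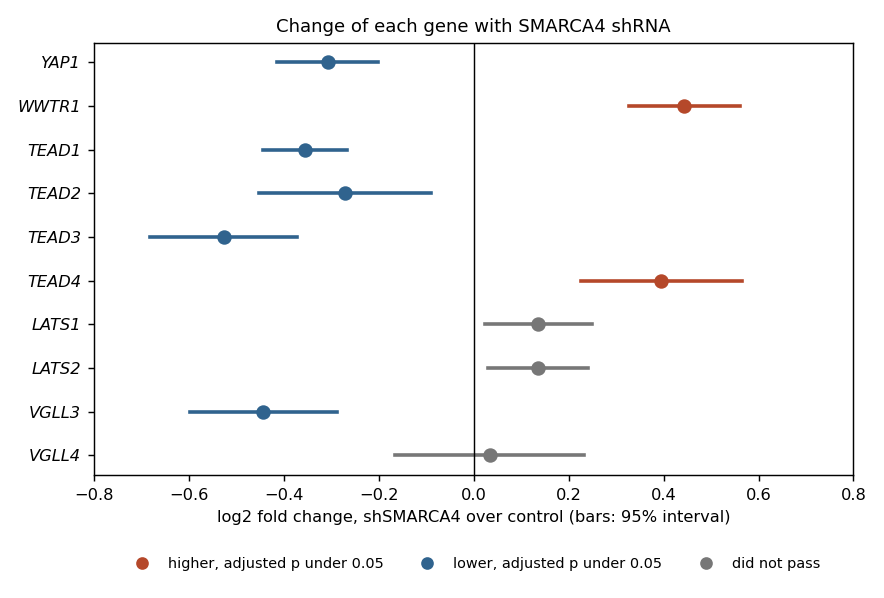
Log2 fold change of shSMARCA4 over control cells (x axis) for each gene (y axis), with its 95% interval from the fit across all genes, not adjusted for the number of genes. Red genes rose, blue genes fell and grey genes did not pass. The intervals of WWTR1 and TEAD4 lie above 0 and those of YAP1, TEAD1, TEAD2, TEAD3 and VGLL3 below. Of the grey genes, the intervals of LATS1 (0.02 to 0.25) and LATS2 (0.03 to 0.24) also lie above 0, and that of VGLL4 spans 0.

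Among the TEAD family, 3 members fell and TEAD4 rose. TEAD1 (ENSG00000187079.20, chr11:12674421-12944737, plus strand), the most abundant of them, had 207 and 207 CPM in shSMARCA4 cells, against 269 and 260 CPM in controls, a log2 fold change of -0.36 (SE 0.0396, adjusted p = 2.70e-04). Its 2 shSMARCA4 libraries were nearly equal and well below the controls. TEAD3 (ENSG00000007866.22, chr6:35473597-35497079, minus strand) had 19.9 and 19.2 CPM in shSMARCA4 cells, against 29.3 and 27.1 CPM in controls. Both shSMARCA4 libraries lay below both controls, at a log2 fold change of -0.53 (SE 0.0688, adjusted p = 6.11e-04) and a level 1.44-fold lower. TEAD2 (ENSG00000074219.14, chr19:49340595-49362407, minus strand) had 15.7 and 14.8 CPM in shSMARCA4 cells and 19.1 and 17.7 CPM in controls. Its fall was the least secure of the 3, at -0.27 (SE 0.0799, adjusted p = 0.0311). TEAD2 did not pass with DESeq2 (adjusted p = 0.128), without a filter on low counts (adjusted p = 0.115) or with library totals (adjusted p = 0.0585). TEAD4 (ENSG00000197905.10, chr12:2959397-3040676, plus strand) had 26.3 and 24.2 CPM in shSMARCA4 cells, against 19.97 and 18.4 CPM in controls, a rise of 1.32-fold (log2 fold change 0.40, SE 0.0749, adjusted p = 0.00422).

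These changes shifted the make-up of the TEAD transcripts. Per kilobase of counted exons, TEAD4 made up 29.5% ± 0.966 of the summed TEAD1 to TEAD4 level in shSMARCA4 cells and 19.7% ± 0.346 in controls (SD, n = 2 each). TEAD1 made up 43.5% ± 1.23 in shSMARCA4 cells and 48.9% ± 0.788 in controls, and TEAD3 made up 13.03% ± 0.0086 in shSMARCA4 cells and 16.5% ± 0.243 in controls. The TEAD2 share moved least, at 14.02% ± 0.270 in shSMARCA4 cells and 14.9% ± 0.199 in controls. The 4 genes summed to 51.7 and 49.8 CPM per kilobase in shSMARCA4 cells, and 59.3 and 56.1 in controls, without overlap. An exact permutation test on 2 libraries a group has p = 0.33 as its smallest value, so these shares and sums carry no test.

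**Figure D3:**
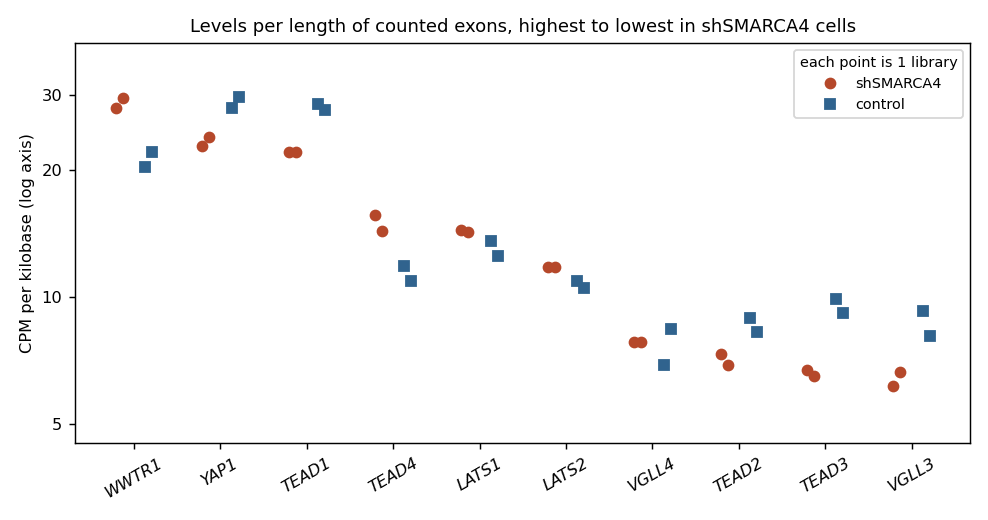
Level per length in CPM per kilobase of counted exons (y axis, log scale) for the 10 genes (x axis, ordered by their mean in shSMARCA4 cells); circles are shSMARCA4 libraries and squares control libraries. WWTR1 stood first in shSMARCA4 cells and behind YAP1 and TEAD1 in controls.

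Ordered by level per kilobase, the shSMARCA4 cells had WWTR1 (28.8 ± 1.16), YAP1 (23.3 ± 0.794) and TEAD1 (22.0 ± 0.0672) on top, followed by TEAD4, LATS1, LATS2, VGLL4, TEAD2, TEAD3 and VGLL3 (6.40 ± 0.341). In controls the order was YAP1 (28.9 ± 1.191), TEAD1 (28.2 ± 0.673), WWTR1 (21.2 ± 1.193), LATS1, TEAD4, LATS2, TEAD3, VGLL3, TEAD2 and VGLL4 (7.63 ± 1.05), each mean with its SD over 2 libraries. Neighbours whose library ranges overlapped were TEAD4 and LATS1, and TEAD3 and VGLL3, in shSMARCA4 cells. In controls they were YAP1 and TEAD1, TEAD3 and VGLL3, VGLL3 and TEAD2, and TEAD2 and VGLL4. The lengths are those of the 1 transcript per gene that the table lists, so the order depends on that choice.

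The kinases LATS1 and LATS2, which phosphorylate YAP and TAZ, stood slightly higher in shSMARCA4 cells and did not pass the test. LATS1 (ENSG00000131023.13, chr6:149658153-149718101, minus strand) had 106 and 105 CPM in shSMARCA4 cells, against 99.8 and 91.7 CPM in controls, a log2 fold change of 0.14 (95% interval 0.02 to 0.25, not adjusted; adjusted p = 0.0701). LATS2 (ENSG00000150457.9, chr13:20973036-21061586, minus strand), itself a known YAP-TEAD target, had 65.1 and 65.0 CPM in shSMARCA4 cells, against 60.4 and 58.0 CPM in controls, also 0.14 (interval 0.03 to 0.24; adjusted p = 0.0564). For each gene both shSMARCA4 libraries lay above both controls. Over 14 alternative fits the log2 fold change lay from 0.075 to 0.20 for LATS1 and from 0.105 to 0.185 for LATS2. Both genes passed under some that kept all 4 libraries. The LATS1 to LATS2 ratio per kilobase was 1.22 in both shSMARCA4 libraries and 1.24 and 1.191 in the controls.

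Of the VGLL cofactors, which bind TEADs through a motif called TONDU, VGLL3 fell and VGLL4 did not pass the test. VGLL3 (ENSG00000206538.9, chr3:86937973-86991149, minus strand) had 64.2 and 69.2 CPM in shSMARCA4 cells, against 96.8 and 84.5 CPM in controls, a log2 fold change of -0.44 (SE 0.0686, adjusted p = 0.00147) and a level 1.36-fold lower. VGLL4 (ENSG00000144560.16, chr3:11556069-11643915, minus strand), a repressor of YAP-TEAD transcription, had 29.4 and 29.4 CPM in shSMARCA4 cells, and 25.9 and 31.5 CPM in controls. The 2 shSMARCA4 libraries lay between the controls, and the log2 fold change of 0.03 had an interval of -0.16 to 0.23. Its direction depended on the control used: -0.10 without control library 1 and 0.18 without control library 2. The span of VGLL4 overlaps that of ATG7 on the other strand, which held 5779 counts against 3533 for VGLL4. Exons were not compared, so how far the VGLL4 counts include reads of ATG7 is not known. Of the related cofactors, VGLL1 had 0 counts in every library. VGLL2 did not pass, at 1.66 and 1.45 CPM in shSMARCA4 cells and 2.16 and 1.52 CPM in controls.

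Some 7-base sequences in 3' untranslated regions (UTRs) went with lower levels in these libraries, and their sites in the 10 genes are shown for that reason. These were ATAGTGA together with its shifted neighbours, TAGTGAA on one side of it and GATAGTG on the other, all picked from these data. Genes with TAGTGAA in the 3' UTR of GENCODE release 29 made up 14.2% of 10693 protein-coding genes of 5 CPM or more, and 30.7% of them fell, against 19.2% of those without it. GATAGTG stood in 7.75% of the same genes, and 33.2% of its holders fell, against 19.8% of those without it. The share of genes that hold either neighbour was not counted. Because the sequences were picked for lower levels in these data, neither these shares nor sites in fallen genes are separate evidence. The shares also make no allowance for the length of the 3' UTR. None of the 10 genes holds ATAGTGA in its 3' UTR. At least 1 of its neighbours stands in the 3' UTR of 3 that fell, YAP1, TEAD1 and VGLL3, and in none of the others, including TEAD2 and TEAD3, which fell. The 3' UTRs searched differ much in length: 9055 bases for VGLL3 and 7261 for TEAD1, the longest of the 10, and 3483 for YAP1, against 195 for TEAD4, 729 for TEAD2 and 1838 to 3576 for the others. For WWTR1, TEAD1, TEAD2, TEAD3 and VGLL4 the transcript searched was not the one counted. The part of these sites, or of length, in the 3 falls was not tested. Capitals mark the 7 bases.
YAP1, base 805 of the 3' UTR: aatgaccatatTAGTGAAtctgttaatagt
YAP1, base 1147 of the 3' UTR: ctattactgtgGATAGTGcctaggggagtg
TEAD1, base 1246 of the 3' UTR: gttaacacattTAGTGAAcacttgtttagt
VGLL3, base 2043 of the 3' UTR: agcacaaaattTAGTGAAtttataaatctg
VGLL3, base 5985 of the 3' UTR: aaaatacagtgTAGTGAAttttatatttgt

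Upstream of LATS, 11 of 21 tested genes passed (52.4%), 5 higher and 6 lower, and the median log2 fold change of the 21 was 0.00. Of all genes tested 29.7% passed, and of protein-coding genes with a mean of 15 CPM or more 42.5%. The 3 pairs of close relatives given next were chosen because they moved apart. Not all relatives did: the LATS-binding adaptors WWC1 (-0.18, SE 0.0569, adjusted p = 0.0454) and WWC2 (-0.18, SE 0.0467, adjusted p = 0.0175) both fell. They too were named after their values were seen. The MST kinase STK4 rose (0.32, SE 0.0418), at 115 and 112 CPM in shSMARCA4 cells against 91.1 and 89.8 CPM in controls. Its paralogue STK3 fell (-0.29, SE 0.0646), at 22.0 and 20.8 CPM in shSMARCA4 cells against 26.3 and 26.1 CPM in controls. That call was lost when low counts were not filtered out (adjusted p = 0.0517), and STK3 stood at -0.25 without shSMARCA4 library 2. The LATS cofactor MOB1A rose (0.22, SE 0.0381) and MOB1B fell (-0.42, SE 0.056). Likewise STK38L rose (0.35, SE 0.0436) and STK38 fell (-0.37, SE 0.0436), both of them NDR kinases related to LATS. Per kilobase, the STK4 to STK3 ratio was 2.31 and 2.39 in shSMARCA4 libraries and 1.53 and 1.52 in controls, that of MOB1A to MOB1B was 10.45 and 10.05 in shSMARCA4 libraries and 6.78 and 6.42 in controls, and that of STK38L to STK38 was 0.660 and 0.622 in shSMARCA4 libraries and 0.389 and 0.388 in controls. MAP4K5, of the MAP4K group of kinases that can activate LATS, fell (-0.38, SE 0.041). The scaffold SAV1 stood at 0.05 (SE 0.0448) and NF2 (merlin), which recruits LATS to the membrane, at 0.16 (SE 0.0759), and neither passed. NF2 had 149 and 148 CPM in shSMARCA4 cells, against 146 and 120 CPM in controls. Its value rested on the control library: 0.31 without control library 1 and 0.03 without control library 2. NF2 passed when scaled by library totals (0.21, adjusted p = 0.0424). The 6 lower calls of this list became 4 with DESeq2 and 3 when low counts were not filtered out, while the higher calls stayed at 5. In the test against a 1.2-fold change, 3 were lower and 0 higher. WWC1 and WWC2 were not among the lower calls of these 3 fits.

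Regulators of MST or LATS kinases included 9 calls among 21 tested genes of the STRIPAK complex, the RASSF family and the Ajuba family. Of these calls, 3 were higher and 6 lower (median of the 21 genes -0.08). This share of 42.9% lay near the 42.5% of protein-coding genes with a mean of 15 CPM or more, where 29.7% of all genes passed. RASSF3 (-0.76, SE 0.0562), of a family that binds MST kinases, and the STRIPAK components FGFR1OP2 (-0.63, SE 0.0508) and SLMAP (-0.30, SE 0.043) fell. AJUBA, which holds back LATS kinases, fell (-0.51, SE 0.0634), at 171 and 166 CPM in shSMARCA4 cells against 257 and 223 CPM in controls. SIKE1, another STRIPAK component, rose (0.36, SE 0.0422). Among 24 tested genes of junctions and polarity, 3 rose and 6 fell, a share of 37.5% (median -0.08). PTPN14, a phosphatase that binds YAP, rose (0.38, SE 0.0461), as did the atypical cadherin FAT4 (0.43, SE 0.0639) and FJX1 (0.41, SE 0.08). The YAP-binding angiomotin AMOTL2 (-0.27, SE 0.0733), FAT3 (-0.86, SE 0.179) and the polarity gene CRB2 (-1.13, SE 0.226), the last at 1.10 and 0.978 CPM in shSMARCA4 cells, fell. Without control library 1, FAT3 stood at -0.52 and AMOTL2 at -0.13. Both lost their calls when low counts were not filtered out (adjusted p = 0.0617 for FAT3 and 0.129 for AMOTL2), and AMOTL2 also in the test against a 1.2-fold change (adjusted p = 0.705). The 6 lower calls of this list became 3 with DESeq2 and 1 when low counts were not filtered out. In the list of YAP and TAZ turnover, 2 of 10 genes rose and 3 fell (median -0.05). OTUB2, a deubiquitinase, rose (0.59, SE 0.112), as did the ubiquitin ligase subunit RBX1 (0.17, SE 0.0434). The kinase CSNK1D (-0.22, SE 0.041), the substrate receptor FBXW11 (-0.15, SE 0.0424) and the cullin CUL1 (-0.14, SE 0.0407) fell. The 3 lower calls of this list became 1 and the 2 higher calls 1, both with DESeq2 and when low counts were not filtered out. RBX1, FBXW11 and CUL1 lost their calls in both fits (with DESeq2, adjusted p = 0.097, 0.125 and 0.152). Their values moved little without shSMARCA4 library 1 or 2: 0.18 and 0.16 for RBX1, -0.17 and -0.13 for FBXW11, and -0.13 and -0.13 for CUL1. CSNK1D stood at -0.19 without library 1.

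Known YAP-TEAD targets did not move one way. In a list of 22 widely used targets, which includes LATS2 from the genes above and AMOTL2, FJX1 and PTPN14 from the junction list, 21 were tested: 6 rose, 6 fell, and the median log2 fold change was 0.00. The share called was 57.1%, against 29.7% of all genes and 42.5% of protein-coding genes with a mean of 15 CPM or more. DESeq2 called 5 higher and 3 lower, the fit with no filter on low counts 4 higher and 1 lower, and the test against a 1.2-fold change 2 higher and 1 lower. The kinase NUAK2 (0.56, SE 0.0911), FJX1, PTPN14 and the ectonucleotidase NT5E (0.35, SE 0.0457) were among those that rose, and the exchange factor ARHGEF17 (-0.54, SE 0.0526) and AMOTL2 among those that fell. The most used reporters of the pathway did not pass in this fit, but their values depended on the libraries, and the call of CCN2 on the scaling. CCN1 (CYR61) had 811 and 793 CPM in shSMARCA4 cells, and 919 and 686 CPM in controls, with the shSMARCA4 libraries between the controls. CCN2 (CTGF) had 296 and 294 CPM in shSMARCA4 cells, against 285 and 218 CPM in controls, a log2 fold change of 0.23 (interval 0.01 to 0.45, not adjusted; adjusted p = 0.115), and it passed with library totals (0.28, adjusted p = 0.0372). ANKRD1 had 193 and 182 CPM in shSMARCA4 cells, and 284 and 188 CPM in controls, at -0.33 (interval -0.66 to 0.00; adjusted p = 0.125).

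The controls differed from each other in the reporters more than the shSMARCA4 libraries did. Control library 1 lay above control library 2 in 19 of the 21 targets tested, against 49.2% of all genes tested. The ratio of control 1 to control 2 was 1.34 for CCN1, 1.31 for CCN2 and 1.51 for ANKRD1, where that of shSMARCA4 library 1 to 2 was 1.02, 1.01 and 1.06. Without control library 1, CCN1 stood at a log2 fold change of 0.23, CCN2 at 0.44 and ANKRD1 at 0.00. Without control library 2, CCN1 stood at -0.20, CCN2 at 0.05 and ANKRD1 at -0.60. Fits with 1 library in a group hold no measure of the spread within that group, so no p-value from them is given. Without shSMARCA4 library 1 or 2, CCN2 stood at 0.23 and 0.23, and ANKRD1 at -0.36 and -0.29. The direction of CCN1 thus turned with the control library used, and ANKRD1 lay near 0 without control library 1.

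**Figure D4:**
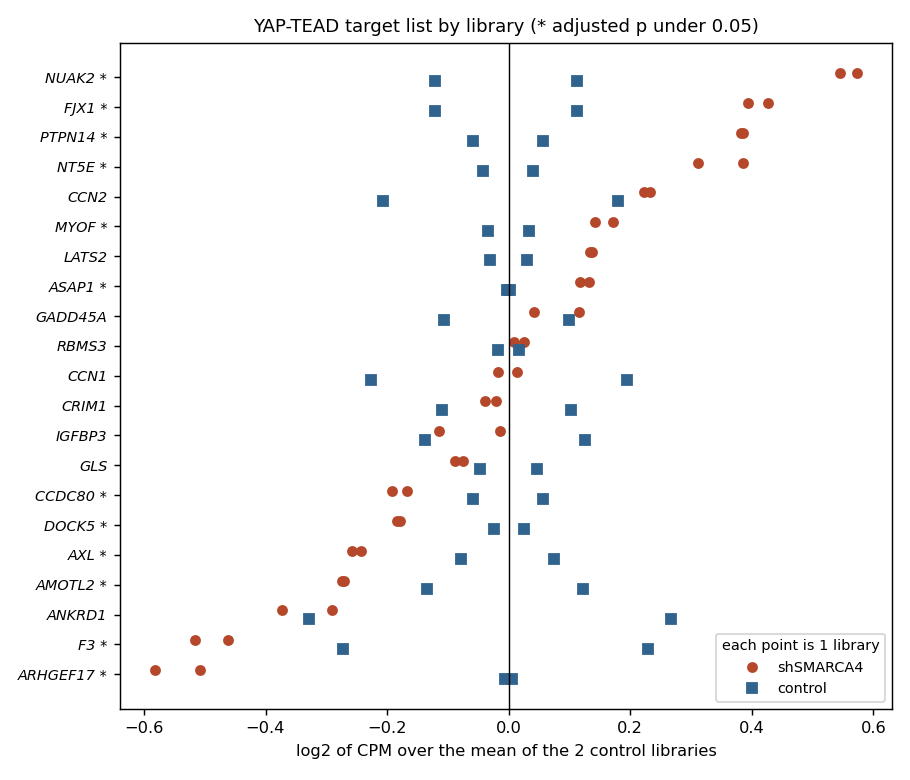
Level of each tested target (y axis, ordered by its log2 fold change) in each library as log2 of CPM over the mean of the 2 controls (x axis); circles are shSMARCA4 libraries, squares controls, and a star marks genes with an adjusted p under 0.05. The squares of CCN1, CCN2, ANKRD1 and F3 lie far apart, with control 1 to control 2 ratios of 1.31 to 1.51, while their circles lie close together.

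The protein-coding genes of 5 CPM or more whose levels followed those of WWTR1 most closely were TMEM231, ZNF74 and ZNF71, at Euclidean distances of 0.0252, 0.0310 and 0.0389 over log2 CPM centred on each gene's mean in the 4 libraries. For TEAD1 they were STEAP3, FAH and SLC5A3, at 0.00818, 0.0115 and 0.0133, among 10877 genes compared. Each distance rests on 4 libraries in 2 groups.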

How the data were processed

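RNA was measured by sequencing in 4 libraries of FT190 cells. The file the authors deposited gives unnormalised counts of reads for each gene. Its header names HOMER with exons of GENCODE 45 and hg38. The header's command counted both strands, listed 1 transcript per gene and applied no adjustment. STAR 2.6.1c and DESeq2 1.19.38 are named in the submitters' processing notes. Columns were matched to samples by library name.

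Of 63241 genes, 18781 passed filterByExpr with a count minimum of 10. Libraries were normalised by TMM (factors 0.976 to 1.02) and tested with edgeR 4.0.16 in R 4.3.3 (glmQLFit, glmQLFTest, two-sided), with a threshold of 0.05 on adjusted p. CPM are counts per scaled library of genes kept. SE is the absolute log2 fold change over the square root of F. The test was tried on simulated counts with known folds. Libraries of a group differed by more than sampling (chi-square over degrees of freedom 1.96 in shSMARCA4 and 7.02 in controls, where sampling alone gives about 1). Each library was taken as 1 replicate, though these values do not show that they came from separate cultures.

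Genes and lists were chosen with earlier results of these data known. By rule, the text names the 10 genes, up to 5 called genes per list with the smallest adjusted p, 10 pathway genes always, and the 3 genes closest to WWTR1 and to TEAD1. Marker genes, PIFO aside, were found by symbol. Alternatives were other scaling, filters, DESeq2 1.42.0, limma-voom (limma 3.58.1), a replicate block, a test against a 1.2-fold change (glmTreat), protein-coding genes alone and each library left out.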

Additional observations from a re-analysis of the deposited data

How the results depend on the processing

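Over 14 alternatives, 118 of 140 values of the 10 genes kept their direction and side of the threshold, 9 lost the call, 12 gained one and 1 (VGLL4) reversed. WWTR1, TEAD3 and VGLL3 passed under all 14. YAP1 (-0.31), TEAD1 (-0.36) and TEAD4 (0.40) lost the call only in the test against a 1.2-fold change (adjusted p = 0.339, 0.0577 and 0.126), where TEAD2 (-0.27, adjusted p = 0.724) did too and 1 of the 10 genes was higher and 2 lower. Of all genes, 642 were higher and 1066 lower in that test, 1403 and 1784 with no filter on low counts, and 1625 and 1930 with DESeq2. TEAD2 also lost its call with library totals (-0.22), no filter (-0.27) and DESeq2 (-0.27). LATS1 and LATS2 passed with upper quartile factors (0.15 and 0.15), library totals (0.19 and 0.185) and protein-coding genes alone (0.14 and 0.14), LATS2 also with a 1 CPM filter (0.14), and each of the first 3 gave 4 higher.

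Leaving out 1 library at a time, where the lone library of a group is assumed to vary like the pair of the other, all genes called higher ranged from 1724 (without shSMARCA4 library 1) to 3618 and those lower from 2077 to 3828, the 10 genes' higher calls from 2 to 4, TEAD2 from -0.32 to -0.21, LATS1 from 0.075 to 0.20, LATS2 from 0.11 to 0.17 and VGLL4 from -0.10 to 0.18. CCN1 lay from -0.20 to 0.23, CCN2 from 0.046 to 0.44, NF2 from 0.026 to 0.31 and ANKRD1 from -0.60 to 0.0022. CCN1, at 0.00 in the reported fit, turned above 0 with RLE factors (0.0018), upper quartile factors (0.015), library totals (0.049), no filter (0.0014), DESeq2 (0.0019), limma-voom (0.013), the replicate block (0.013) and protein-coding genes alone (0.0043).

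No label says that replicate numbers pair libraries. The deviations of library 1 from its group mean had a correlation of 0.27 between the groups, over 11985 genes. With the replicate block, LATS1 (0.14), LATS2 (0.14), CCN2 (0.24, adjusted p = 0.0169), ANKRD1 (-0.31, adjusted p = 0.0164) and NF2 (0.16, adjusted p = 0.0378) passed, 4 of the 10 genes and 8 of the upstream list were higher, and 3187 genes were higher and 3562 lower.

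Without division by length, TEAD4 made up 9.45% of TEAD transcripts in shSMARCA4 cells and 5.80% in controls, TEAD1 77.5% and 80.1%, and TEAD2 5.71% and 5.57%, the reverse of its order per kilobase. The WWTR1 to YAP1 ratio was then 1.15 and 0.684. In the first 250 bases of the windows, GGAATG stood in YAP1 alone.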
